A study of Rattus norvegicus with 6 samples.

Results

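The genes described here build asparagine-linked (N-linked) glycans and glycosylphosphatidylinositol (GPI) anchors. They were chosen by gene name in the deposited count table: the Alg genes, Dpagt1 and the Dpm genes, 5 oligosaccharyltransferase subunits, the Man1 and Man2 mannosidases, the Mgat genes and the genes named Pig plus 1 letter. That gave 62 of 32883 table rows, with 61 distinct names because Pigz has a pair of rows. The rows fall into 11 Alg, 4 Dpagt1 and Dpm, 5 oligosaccharyltransferase, 9 mannosidase, 10 Mgat and 23 Pig rows. Alg13 and Stt3a matched no row and were not analysed here. Pigr encodes an immunoglobulin receptor and entered by its name only. The group was proposed with the counts of these same libraries in view, so its differences between the libraries are given as a description, without p-values.

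The 6 libraries came from GH4C1 cells, a rat pituitary line that makes prolactin and growth hormone. The cells were of wild type genotype and all were treated with psoralen, which crosslinks RNA strands that are paired with each other. RNA was then pulled down with oligo pool A (libraries A1 to A3) or oligo pool B (libraries B1 to B3), to find RNAs linked to the nuclear RNA Neat1. No label gives the pools' sequences or says whether either pool is a control. The labels also do not say whether libraries of a pool came from separate cultures, so the spread between them may be technical. A count in such a library depends on how much of an RNA the cells hold and on how much was recovered, which cannot be told apart here. All libraries are from 1 cell line, and no library of total RNA before the pull-down was analysed here.

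N-linked glycans are assembled on the lipid dolichol in the membrane of the endoplasmic reticulum. Dpagt1 and the Alg enzymes add the sugars in order, at the cytosolic face at the start and in the lumen later. The lumenal steps take mannose from dolichol-phosphate-mannose, made by Dpm1 with Dpm2 and Dpm3, and glucose from dolichol-phosphate-glucose, made by Alg5. Oligosaccharyltransferase then moves the finished glycan to the protein. Glucosidases, mannosidases and Mgat enzymes trim and rebuild it in the endoplasmic reticulum and the Golgi. GPI anchors are built in the same membrane by Pig enzymes, which also use dolichol-phosphate-mannose, and a transamidase joins them to proteins. The hormones that pituitary cells secrete pass through these compartments.

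Pool A libraries held 2528563 to 3685899 counts and pool B libraries 1826390 to 2933953. Values per library are counts per 1000000 counts of that library (CPM), and 3 counts correspond to 0.814 to 1.64 CPM. Fold changes are log2 of pool A over pool B from an edgeR quasi-likelihood fit to all 11582 genes that passed a filter on low counts, after scaling by the trimmed mean of M-values (TMM). A gene is called higher with a pool where its Benjamini-Hochberg adjusted p in that fit is under 0.05. Over all tested genes, 18.6% were called higher with pool A, 22.0% were called higher with pool B, and the median log2 fold change was 0.02. The 3 pool A values lay wholly above the 3 pool B values in CPM for 18.9% of the tested genes, and wholly below them for 30.2%. A run of 20 rows around the 5.8S ribosomal RNA gene held 18.5% ± 4.87 (SD, n = 3) of the pool A counts and 8.20% ± 2.57 (SD, n = 3) of the pool B counts. Prl, Gh1 and Pou1f1, markers of the line, were counted in all 6 libraries, while their companions Ghrhr and Drd2 were at 0 in all. These 5 markers summed to 1011 to 1092 CPM with pool A and 703 to 903 CPM with pool B, a gap carried by Prl, called higher with pool A at 0.83 ± 0.14 (SE). Gh1 had overlapping ranges, and Pou1f1 was slightly lower with pool A, at 158 against 204 CPM on average, without a call. Of 8 markers of other pituitary cells, Tshb, Fshb and Gata2 were at 0, and the list summed to 14.6 to 26.0 CPM with pool A and 51.5 to 55.6 CPM with pool B. Lhb made up most of that sum and was called higher with pool B at -1.68 ± 0.28 (SE), while Pomc, too low for the test, had a lower mean with pool B. Of 3 folliculostellate and stem cell markers Aldh1a1 was at 0, and the list, mostly Sox2, summed to 42.6 to 51.8 CPM with pool A and 19.1 to 32.2 CPM with pool B. Of 3 matched fibroblast and vessel markers Kdr was at 0, and the list reached at most 2.05 CPM. Of 2 matched blood markers Hbb was at 0, and the list summed to 0.395 to 5.65 CPM with pool A and to 0 with pool B. The part of these RNAs, and of the ribosomal run, in the results below was not tested.

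The 62 rows together took 0.196% to 0.205% of the counts with pool A and 0.181% to 0.204% with pool B, with overlapping ranges. Of the 48 rows that passed the filter, 16 were called higher with pool A and 4 higher with B, beside the 18.6% and 22.0% of all genes. Leaving out 1 library at a time, 11 of the 16 and 2 of the 4 calls held in all 6 refits. The median log2 fold change of the 48 was 0.38, from -1.49 for Man2c1 to 2.20 for Mgat2. CPM ranges lay apart with pool A above for 18 and with pool B above for 6, beside 18.9% and 30.2% of all tested genes. Since the same counts were in view when the group was proposed, nothing is read from these shares. The other 14 rows were too low to be tested: Pigm, Pigr, Mgat4c and 1 Pigz row had no count in any library, Man1a1 and the other Pigz row had 1 count in all, and 8 had mean counts between 4 and 9.67. A low gene passes the filter more readily when it is high in either pool, so these are counts of tested rows, not of all members.

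**Figure D1:**
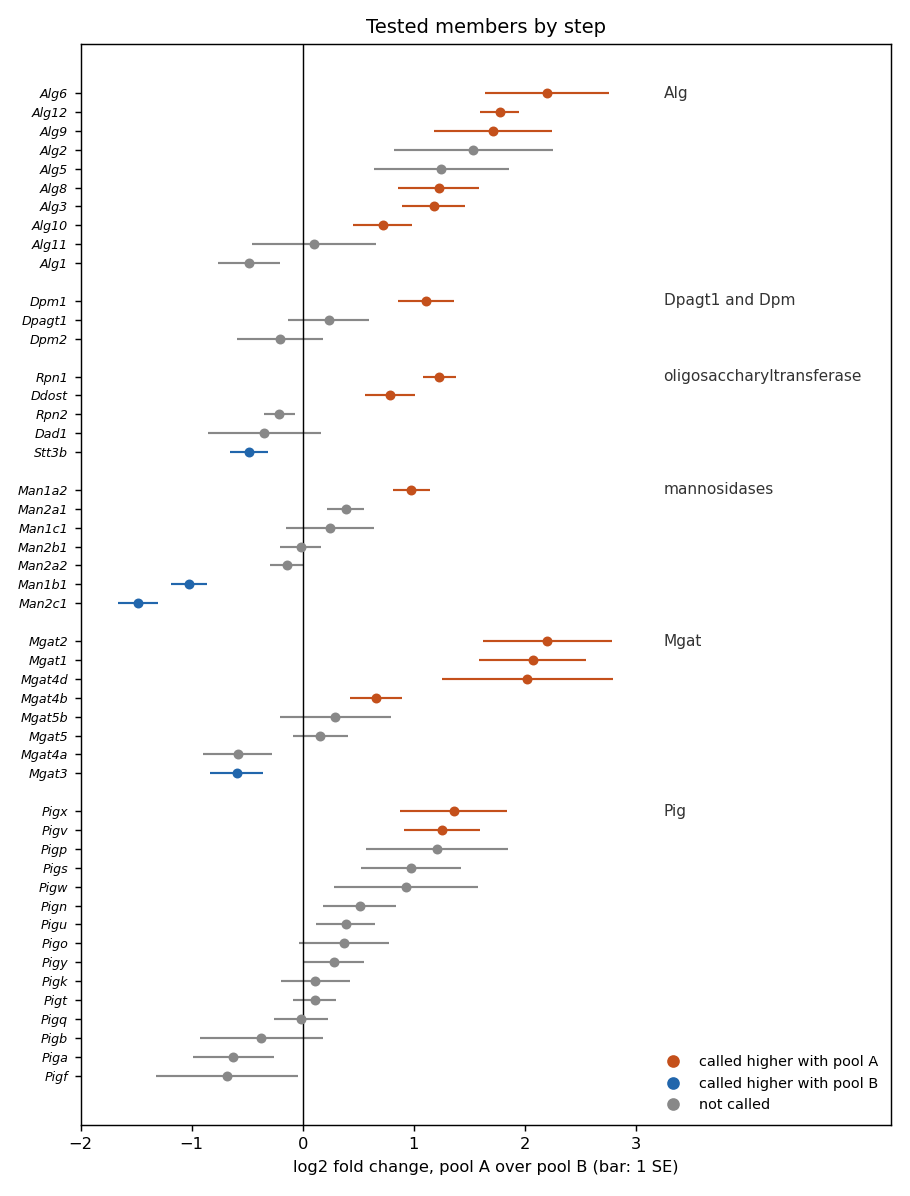
Log2 fold change of pool A over pool B for the 48 tested members, ordered within each step, with bars of 1 SE and colours for the call. Of the 10 Alg genes, 9 lie to the right of 0 (Alg11 changes sides with total counts alone), while the mannosidases reach from -1.49 for Man2c1 to 0.98 for Man1a2.

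The Alg genes had the highest median fold change of the 6 classes. Of their 10 tested rows 6 were called higher with pool A (Alg12, Alg6, Alg9, Alg8, Alg3 and Alg10) and 0 with pool B. At an unadjusted p under 0.05, which 22.2% of all tested genes met with the higher level in pool A and 25.0% with it in pool B, the numbers were 7 and 0. DESeq2 and limma-voom also called 0 higher with pool B. Over the 38 tested members of the other steps, 10 were called higher with pool A and 4 higher with B, beside the same 18.6% and 22.0%. The median log2 fold change was 1.24 for the Alg genes and 0.26 for the other members. CPM ranges lay apart with pool A above for 7 of the 10 Alg genes and for 11 of the 38 others, beside 18.9% of all tested genes. They lay apart with pool B above for 0 of the 10 and 6 of the 38, beside 30.2%. Summed over the 11 rows, Alg RNA came to 277 ± 6.45 CPM in the pool A libraries and to 141 ± 10.6 CPM in those of pool B (SD, n = 3 each), and 5 of the 6 calls exceeded a 2-fold difference. Over all tested genes, 1289 of the 2154 called higher with pool A exceeded it. The sums of the oligosaccharyltransferase, Mgat and Pig rows overlapped between the pools. The sum of Dpagt1 and the Dpm genes was 71.7 ± 7.76 CPM against 50.6 ± 10.6 CPM (SD, n = 3 each). That of the mannosidases lay the other way, at 576 ± 25.6 CPM against 723 ± 47.3 CPM (SD, n = 3 each).

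The same contrast could be read within each library. The median log2 CPM of the 10 tested Alg genes minus that of the 38 other members was -0.60, -0.65 and -0.58 in A1 to A3. In B1 to B3 it was -1.47, -1.13 and -1.04. The pool A libraries thus lay close together and apart from all 3 pool B libraries, of which B1 was the lowest. The Alg median minus the other members' median, 0.97 as a difference of log2 fold changes, ran from 0.82 without A1 to 1.21 without A3. The Alg genes were also the less deeply counted class: their median mean count per library was 35.9, with a median SE of 0.45 on the log2 scale, against 0.32 over all tested members. Of the 48 tested members, 23 had a mean count under 50, of which 8 were called, and 12 of those with deeper counts were. Over all 11582 tested genes, 868 of the 4519 under 50 were called, and 3832 of those with deeper counts.

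The upstream 250 bases of 3 Alg genes are printed to show the start of a gene far higher with pool A (Alg12, Alg6) beside the only tested Alg gene with a negative fold change (Alg1). They are from RefSeq on build GRCr8, 5′ to 3′ on the gene's strand, and end at the base before the annotated start. Capitals mark CCAAT and GGGCGG on either strand, the letters of the CCAAT box and the GC box.

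Alg12 (chr7:121788984-121789233, minus strand): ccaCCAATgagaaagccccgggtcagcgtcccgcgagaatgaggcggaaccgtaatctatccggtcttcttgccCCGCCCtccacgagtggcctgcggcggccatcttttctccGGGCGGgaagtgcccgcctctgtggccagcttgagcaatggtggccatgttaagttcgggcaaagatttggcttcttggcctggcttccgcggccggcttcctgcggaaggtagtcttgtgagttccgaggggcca
Alg6 (chr5:119520265-119520514, plus strand): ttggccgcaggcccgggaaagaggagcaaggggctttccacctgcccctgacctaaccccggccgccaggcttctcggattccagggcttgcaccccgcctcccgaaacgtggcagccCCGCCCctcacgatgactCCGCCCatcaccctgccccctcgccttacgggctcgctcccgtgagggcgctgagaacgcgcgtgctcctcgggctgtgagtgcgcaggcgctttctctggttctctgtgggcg
Alg1 (chr10:10863240-10863489, minus strand): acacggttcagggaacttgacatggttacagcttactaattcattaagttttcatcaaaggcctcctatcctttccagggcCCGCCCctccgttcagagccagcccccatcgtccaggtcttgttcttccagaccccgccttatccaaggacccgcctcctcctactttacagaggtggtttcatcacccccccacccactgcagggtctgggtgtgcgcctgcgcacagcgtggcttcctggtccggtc

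Alg12 held 1 CCAAT and 2 GGGCGG matches, Alg6 had 2 GGGCGG matches and no CCAAT, and Alg1 had 1 GGGCGG match and no CCAAT. Of 33469 such rat windows, 34.0% held CCAAT and 30.5% held GGGCGG. Of the 56 member genes with a window, 20 held CCAAT and 33 held GGGCGG, among them 3 and 7 of the 10 Alg genes with a window. A gene was counted if any window under its name held the letters. The percentages are per window, so genes and windows are unlike measures here. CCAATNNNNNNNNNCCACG, the ER stress response element, was in 22 windows, 0.0657% of all, and in none of the 56. These matches describe letters in a window and say nothing of which factor binds there.

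At the cytosolic face, where the chain is begun, no Alg gene was called. Alg1 adds the earliest mannose. Its values were 18.2, 17.0 and 29.2 CPM in A1 to A3 and 25.2, 42.7 and 32.2 CPM in B1 to B3, which overlapped, and its log2 fold change was -0.49 ± 0.28 (SE). Alg2 adds the mannoses that branch the chain. It had 8.41, 7.51 and 4.08 CPM with pool A and 5.45, 0.548 and 1.13 CPM with pool B, so B1 reached into the pool A range. Its log2 fold change was 1.54 ± 0.72 (SE) without a call, and 3.01 with a call when B1 was left out. Alg11, which extends that chain with further mannose, had 2.98, 9.89 and 8.16 CPM against 6.48, 8.21 and 6.81 CPM, with a log2 fold change of 0.10 ± 0.56 (SE). Its sign turned with the scaling and with the library left out. Alg14, a partner in adding the second N-acetylglucosamine, was not tested, at 3.53, 1.58 and 1.88 CPM with pool A and 2.05, 0 and 1.89 CPM with pool B. At an unadjusted p under 0.05 the fit had 1 of the 3 tested genes higher with pool A, 0 with B, beside the 22.2% and 25.0% of all genes.

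The 3 mannosyltransferases of the lumen were all called higher with pool A, beside 18.6% of all tested genes. Alg12 adds the mannose that opens a further arm. It held 137, 122.6 and 115 CPM in A1 to A3 and 42.6, 42.2 and 36.7 CPM in B1 to B3, the pools lying far apart and each tightly grouped. The means were 125 ± 11.3 CPM and 40.5 ± 3.29 CPM (SD, n = 3 each), with a log2 fold change of 1.77 ± 0.18 (SE). Alg3, the enzyme for the earliest lumenal mannose, had 31.2, 28.9 and 30.4 CPM with pool A and 14.3, 14.2 and 15.5 CPM with pool B. It had the tightest replicates of the class, with a log2 fold change of 1.18 ± 0.28 (SE) that ran only from 1.15 to 1.24 as libraries were left out. Alg9 acts before and after Alg12. It had 11.7, 13.8 and 13.2 CPM with pool A and 2.05, 2.74 and 7.94 CPM with pool B, where B3 stood above B1 and B2. Its log2 fold change of 1.72 ± 0.53 (SE) became 2.59 without B3, and 1.35 without a call when B1 was left out.

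The glucose steps, which finish the chain, all had CPM ranges with pool A above pool B, and 3 of the 4 genes were called. Of all tested genes, 18.9% had such ranges and 18.6% were called higher with pool A. Alg6 adds the earliest glucose. It had 7.87, 11.9 and 14.4 CPM in A1 to A3 and 2.73, 2.19 and 3.03 CPM in B1 to B3, the log2 fold change of 2.20 ± 0.56 (SE) being the largest of the Alg genes. Alg8, for the second glucose, had 25.0, 20.6 and 19.1 CPM against 6.14, 12.05 and 12.9 CPM, B1 being lowest, and a log2 fold change of 1.22 ± 0.37 (SE). Alg10, for the third, had 30.1, 31.2 and 33.9 CPM against 18.7, 21.4 and 23.8 CPM. The log2 fold change of Alg10 was smaller, 0.72 ± 0.26 (SE), and its call was lost without any 1 library other than B3, at values from 0.63 to 0.75. It was also lost with scaling by total counts alone, at 0.58, and with no filter on low counts, at 0.72. Alg5, which makes the glucose donor, was not called: it had 9.22, 8.31 and 5.33 CPM with pool A and 3.41, 1.64 and 5.297 CPM with pool B, A3 and B3 nearly touching, and a log2 fold change of 1.25 ± 0.61 (SE).

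**Figure D2:**
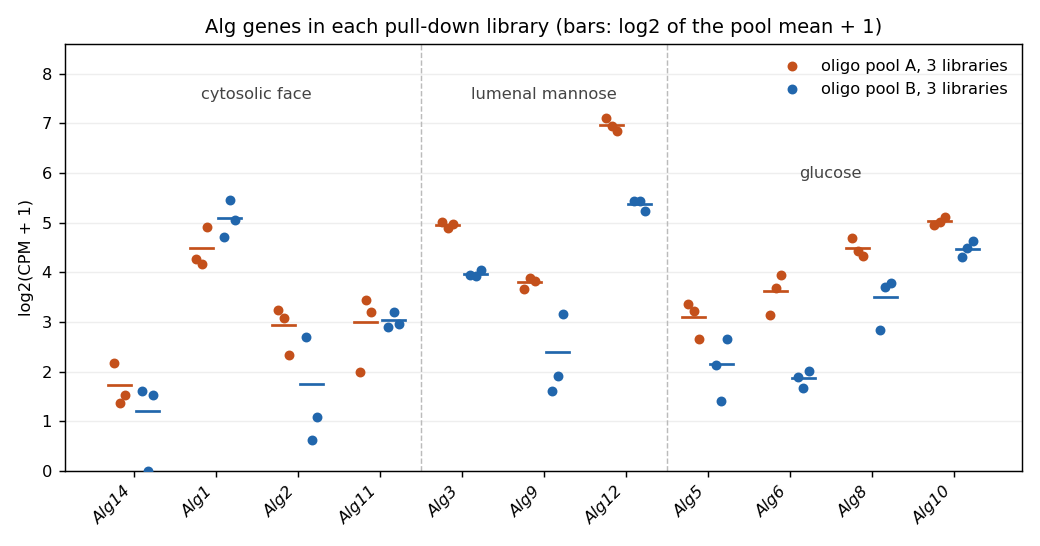
Log2 of CPM plus 1 for the 11 Alg genes in each library, with bars at log2 of the pool mean plus 1 and dashed lines between the cytosolic, lumenal mannose and glucose steps. All 3 pool A points lie above all 3 pool B points for the 7 genes of the lumenal mannose and glucose steps, and the points overlap for the 4 cytosolic genes. Of all tested genes, 18.9% had all pool A values above all pool B values.

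Some of these genes share their place with a neighbour on the other strand. On GRCr8, 22 member genes overlap a protein-coding gene, 14 of them on the opposite strand. For Pigc, Pigf, Pigw and Pigy the strands of the pair were not known. The libraries were strand-specific, but how strand was used in the counting is not given in the sources used here, so reads of such pairs may have been mixed. Creld2 overlaps Alg12 on the opposite strand and went the other way: it had 23.6, 21.0 and 29.2 CPM with pool A, all below its 67.5, 72.8 and 70.7 CPM with pool B. The log2 fold change of Creld2 was -1.37 ± 0.21 (SE), called higher with pool B. Alg1 overlaps Eef2kmt and C10h16orf89 on the opposite strand. Eef2kmt, like Alg1, had a negative log2 fold change without a call, -0.50 ± 0.46 (SE), with 6.78, 8.31 and 6.90 CPM with pool A below its 10.2, 14.8 and 9.84 CPM with pool B. Itgb3bp overlaps Alg6 on the opposite strand and moved the same way as Alg6, at 1.57 ± 0.55 (SE). Its values, 3.53, 17.4 and 21.3 CPM with pool A against 3.75, 7.12 and 4.92 CPM with pool B, overlapped through A1. Its call was lost without A2, A3, B1 or B3, with values down to 1.204, and with limma-voom or the replicate number as a block, at 1.18 and 1.33. Alg12 and its neighbour thus had opposite calls, while for Alg6 the neighbour's call was shared in direction.

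Upstream of the Alg steps, Dpagt1, which starts the chain, had 16.3, 9.89 and 18.8 CPM with pool A and 11.9, 13.7 and 16.6 CPM with pool B, overlapping, with a log2 fold change of 0.23 ± 0.37 (SE). Dpm1, the catalytic subunit of dolichol-phosphate-mannose synthase, was called higher with pool A. It had 37.7, 41.9 and 46.1 CPM in A1 to A3 and 16.7, 20.3 and 27.2 CPM in B1 to B3, with no overlap, and a log2 fold change of 1.11 ± 0.26 (SE). On GRCr8 it overlaps Adnp on the same strand, itself called higher with pool A at 0.58 ± 0.15 (SE). The regulatory subunit Dpm2 was not called, at 12.2, 12.7 and 10.04 CPM against 10.2, 18.6 and 16.3 CPM and a log2 fold change of -0.21 ± 0.39 (SE). Dpm3, which holds the enzyme in the membrane, was too low for the test, with 5, 6 and 18 counts in A1 to A3 and 1, 0 and 0 in B1 to B3. Pooled over each pool's libraries this is a 22.8-fold ratio of CPM, with an exact 95% interval of 3.79 to 933 that covers counting error only. It was 13.1-fold without A3, which held most of the counts, and 14.7-fold without B3. The pool B count was in B1, so without B1 there is no ratio, only a lower limit of 3.5. The 3 subunits of the enzyme therefore had unlike values: Dpm1 was called, Dpm2 had overlapping ranges, and Dpm3 rested on few counts.

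Of the 5 oligosaccharyltransferase subunits, 2 were called higher with pool A and 1 higher with B, beside 18.6% and 22.0% of all tested genes. Rpn1, a large membrane subunit, was called higher with pool A: it had 311, 243 and 251 CPM in A1 to A3 and 133, 135 and 113 CPM in B1 to B3. The means were 268 ± 37.0 CPM and 127 ± 11.98 CPM (SD, n = 3 each), with no overlap and a log2 fold change of 1.23 ± 0.15 (SE). Ddost, another subunit of the core, was also called higher with pool A, at 61.3, 50.6 and 45.5 CPM against 32.0, 38.9 and 31.0 CPM and a log2 fold change of 0.79 ± 0.22 (SE). Stt3b, a catalytic subunit, was the opposite. It had 68.6, 69.2 and 73.1 CPM with pool A, all below the 118, 117 and 92.7 CPM with pool B, and was called higher with pool B at -0.48 ± 0.17 (SE). This call was lost without any 1 library other than B3, with values from -0.48 to -0.42, and with upper-quartile scaling, at -0.38. Rpn2, like Rpn1 a ribophorin, was not called at -0.21 ± 0.14 (SE), though its 187, 218 and 193 CPM with pool A lay below its 236, 281 and 253 CPM with pool B. With scaling by total counts alone it was called higher with pool B, at -0.36. Dad1, a small subunit, had overlapping values of 6.78, 11.9 and 8.16 CPM and 14.7, 20.3 and 3.40 CPM, and its log2 fold change of -0.35 ± 0.51 (SE) turned to 0.10 without B2. Subunits of the same complex thus lay on both sides of 0, with Rpn1 and Stt3b called in opposite directions.

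**Figure D3:**
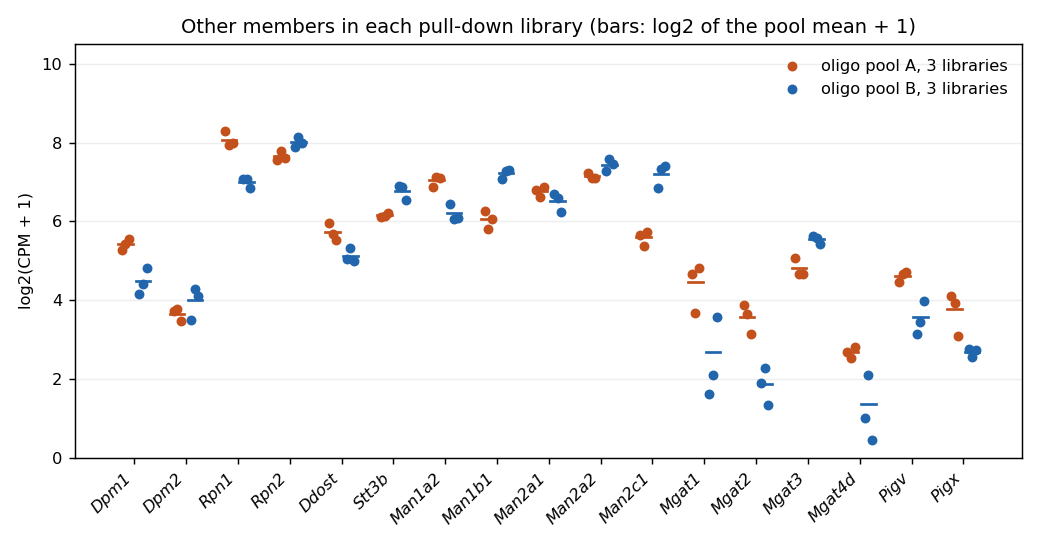
Log2 of CPM plus 1 for 17 members of the other steps in each library, with bars at log2 of the pool mean plus 1. Rpn1, Man1a2 and Mgat1 have all pool A points above all pool B points, and Stt3b, Man1b1, Man2c1 and Mgat3 have them below.

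Of the 7 tested mannosidases, 1 was called higher with pool A and 2 higher with B, beside 18.6% and 22.0% of all tested genes, with a median log2 fold change of -0.02. Man1a2, a Golgi enzyme that trims the high-mannose glycan, had 116, 139 and 136 CPM in A1 to A3 and 85.6, 65.7 and 67.3 CPM in B1 to B3. These did not overlap, and the log2 fold change was 0.98 ± 0.17 (SE). Its paralog Man1a1 had 1 count in the 6 libraries together. Man1b1 removes a mannose from glycans of misfolded proteins. It had 76.0, 55.0 and 65.6 CPM with pool A and more than that in every pool B library, at 134, 154 and 156 CPM, with a log2 fold change of -1.02 ± 0.17 (SE). Man2c1, which takes apart free glycans in the cytosol, had 49.4, 40.3 and 52.1 CPM against 114, 159 and 168 CPM. Its means were 47.3 ± 6.15 CPM and 147 ± 29.1 CPM (SD, n = 3 each), and its log2 fold change of -1.49 ± 0.18 (SE) was the lowest of all tested members. The Golgi enzymes Man2a1 and Man2a2, which trim the glycan further after Mgat1 has acted, were not called. Man2a1 had 109, 97.3 and 116 CPM against an overlapping 102, 95.8 and 74.9 CPM, with a log2 fold change of 0.39 ± 0.16 (SE). It was called higher with pool A without B1 and with upper-quartile scaling, both at 0.49, and with 10 counts required in every library, at 0.40. Man2a2 had 150, 135 and 136 CPM against 153, 190 and 175 CPM, with a log2 fold change of -0.15 ± 0.15 (SE). Man1c1, at 0.25 ± 0.40 (SE), and the lysosomal Man2b1, at -0.02 ± 0.19 (SE), had overlapping ranges, and Man2b2 was too low for the test.

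Of the 8 tested Mgat genes, which add the N-acetylglucosamine branches, 4 were called higher with pool A and 1 higher with B, beside 18.6% and 22.0% of all tested genes. Mgat1, which opens the path to hybrid and complex glycans, had 24.4, 11.9 and 27.3 CPM in A1 to A3 and 2.05, 3.29 and 10.97 CPM in B1 to B3. The pools were apart, though only narrowly between A2 and B3. The log2 fold change of Mgat1 was 2.07 ± 0.48 (SE), and 3.17 without B3. Mgat2, which acts next on the other arm, had 13.6, 11.5 and 7.84 CPM against 2.73, 3.83 and 1.51 CPM, with no overlap and a log2 fold change of 2.20 ± 0.58 (SE). Both enzymes that start the branches were thus several-fold higher with pool A. Mgat4d, whose product is known as an inhibitor of Mgat1, had 5.43, 4.75 and 5.96 CPM against 1.02, 3.29 and 0.378 CPM, from a mean of 10.2 counts per library. Its log2 fold change of 2.02 ± 0.77 (SE) was 2.97 without B2, and its call was lost without any other single library, at 1.54 without B3. The call was also lost with total counts alone, at 1.88, with no filter on low counts, at 2.01, and in the limma-voom test, at 2.29. Mgat4b, a branching enzyme, was called higher with pool A at 0.66 ± 0.23 (SE), with 48.0, 35.6 and 46.7 CPM against 35.4, 29.6 and 26.1 CPM. That call was lost without A1, B2 or B3, with values down to 0.56, and with total counts alone, at 0.52. Mgat3, which adds the bisecting N-acetylglucosamine, was the gene called higher with pool B. It had 32.8, 24.5 and 24.2 CPM with pool A and 48.1, 47.1 and 42.0 CPM with pool B, a clear gap, and a log2 fold change of -0.60 ± 0.24 (SE). Its call held only when A1 was left out, at -0.77, and was lost without any other library, at up to -0.46. It was also lost with upper-quartile scaling, at -0.49, with DESeq2's size factors in edgeR and in the DESeq2 test, both at -0.58, with no filter on low counts, at -0.59, and with 10 counts required in every library, at -0.58. Mgat4a, at -0.59 ± 0.31 (SE), Mgat5, at 0.16 ± 0.25 (SE), and Mgat5b, at 0.29 ± 0.50 (SE), had overlapping ranges. Without A3, Mgat4a was called higher with pool B, at -1.05.

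The Pig genes, for GPI anchors, were the class with the most rows. Of 15 tested, 2 were called higher with pool A and 0 higher with B, beside 18.6% and 22.0% of all tested genes. Their median log2 fold change was 0.37. At an unadjusted p under 0.05 the numbers were 3 and 0, beside 22.2% and 25.0% of all tested genes. Pigv, which adds the second mannose of the anchor, had 20.9, 24.5 and 25.1 CPM in A1 to A3 and 7.84, 9.86 and 14.8 CPM in B1 to B3. The pools did not overlap, and the log2 fold change was 1.26 ± 0.34 (SE). Pigx, which stabilises the enzyme for the anchor's earliest mannose, had 16.3, 14.2 and 7.53 CPM against 5.79, 4.93 and 5.67 CPM, A3 being the lowest of its pool. Its log2 fold change of 1.36 ± 0.48 (SE) lost its call without A1, A2, B2 or B3, at values down to 1.13, and in the limma-voom test, at 1.21. Pigm, the catalytic partner of Pigx, had no count in any library, which allows up to 3 counts in each, or 0.814 to 1.64 CPM. Among the 12 rows of the steps between, from deacetylation and acylation (Pigl, Pigw) to mannose and ethanolamine phosphate transfer, 7 were tested, with a median of 0.51, and Pigv and Pigx were the 2 called. Pigf, a helper of ethanolamine phosphate transfer, had the lowest value of the class, -0.69 ± 0.64 (SE), with overlapping ranges.

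Of all tested genes, 18.6% were called higher with pool A and 22.0% higher with B. At an unadjusted p under 0.05 these shares were 22.2% and 25.0%. The enzyme complex that begins the anchor had 6 rows, of which 4 were tested and 0 called, also at an unadjusted p under 0.05, with a median log2 fold change of 0.13. Piga, its catalytic subunit, had 7.60, 9.89 and 19.4 CPM with pool A and 19.4, 17.5 and 25.0 CPM with pool B, overlapping, at -0.62 ± 0.37 (SE). Without A3 it was called higher with pool B, at -1.045. Pigp had 5.15, 9.89 and 5.02 CPM against 2.05, 3.83 and 3.78 CPM, which did not overlap, but at a mean of 13.8 counts its log2 fold change of 1.21 ± 0.64 (SE) was not called. On GRCr8 Pigp overlaps Ttc3 on the opposite strand, which was called higher with pool B at -1.20 ± 0.14 (SE). Pigc had 7, 12 and 5 counts in A1 to A3 and none in B1 to B3, too few for the test. Over each pool's libraries together, the exact 95% interval of the ratio begins at 4.74-fold higher in pool A, for counting error only, and at 2.99 without A2, 2.86 without B1 and 3.05 without B3. Of the GPI transamidase, which attaches the anchor, all 4 subunits among the members (Pigk, Pigs, Pigt and Pigu) were tested and 0 were called, with 1 higher with pool A at an unadjusted p under 0.05. Their log2 fold changes ran from 0.11 ± 0.20 (SE) for Pigt to 0.98 ± 0.45 (SE) for Pigs, and all 4 had overlapping CPM ranges. Pigs had 7.60, 15.4 and 16.0 CPM against 7.16, 6.02 and 8.32 CPM, where only A1 lay within the pool B range. It was called higher with pool A without A1, at 1.26, and where 10 counts were required in every library, at 0.99.

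A list of 49 other genes of the same pathways, written with earlier results of these libraries known, matched 47 rows. Of 44 tested, 11 were called higher with pool A and 6 higher with B, beside 18.6% and 22.0% of all tested genes, with a median log2 fold change of 0.31 over the list and 0.38 over the members. The trimming and quality control genes held most of the calls, 6 higher with pool A and 3 higher with B among 12 tested. Ngly1, which cuts glycans off misfolded proteins in the cytosol, had 36.1, 37.6 and 44.9 CPM in A1 to A3 and 3.41, 6.02 and 7.94 CPM in B1 to B3. Its means were 39.5 ± 4.70 CPM and 5.79 ± 2.28 CPM (SD, n = 3 each), with no overlap, and its log2 fold change of 2.92 ± 0.33 (SE) was larger than that of any tested member. Edem3, a mannosidase of glycoprotein degradation, had 64.3, 56.2 and 63.1 CPM against 23.2, 10.95 and 12.1 CPM, with no overlap and a log2 fold change of 2.10 ± 0.26 (SE). The glucosidases, which remove the glucoses added by Alg6, Alg8 and Alg10, differed within 1 enzyme. Prkcsh, the beta subunit of glucosidase II, had 811, 679 and 816 CPM against 362, 292 and 285 CPM and was called higher with pool A at 1.44 ± 0.14 (SE). Ganab, its catalytic alpha subunit, had 210, 180 and 186 CPM against 426, 410 and 415 CPM and was called higher with pool B at -0.97 ± 0.13 (SE). Mogs, glucosidase I, had 2.44, 2.37 and 3.76 CPM against 9.54, 9.31 and 23.5 CPM, B3 far above the rest. Its log2 fold change was -2.16 ± 0.55 (SE), and -1.56 without a call when B3 was left out.

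Over all tested genes 18.6% were called higher with pool A and 22.0% higher with B. Of 10 genes for sugar nucleotides, 3 were called higher with pool A, among them Gmppa, a regulator of GDP-mannose synthesis, at 1.56 ± 0.23 (SE) with 81.4, 47.5 and 80.6 CPM against 25.2, 32.9 and 21.2 CPM. Of the 6 tested genes of dolichol supply, Dhdds, a subunit of the enzyme that makes the dolichol chain, was called higher with pool B. It had 42.3, 37.2 and 59.0 CPM against 124, 138 and 160 CPM, which lay far apart, and a log2 fold change of -1.47 ± 0.18 (SE). Nus1, the other subunit of that enzyme, was not called at -0.39 ± 0.29 (SE), a value that turned to 0.081 without B3. Of 6 tested further GPI genes, Pgap3, which remodels the lipid of the finished anchor, was called higher with pool B, at 17.1, 21.0 and 25.1 CPM against 37.8, 60.8 and 59.0 CPM and -1.17 ± 0.25 (SE). Ganab, Prkcsh, Nus1 and the genes Creld2, Eef2kmt, Itgb3bp, Adnp and Ttc3 were named after their values were seen.

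**Figure D4:**
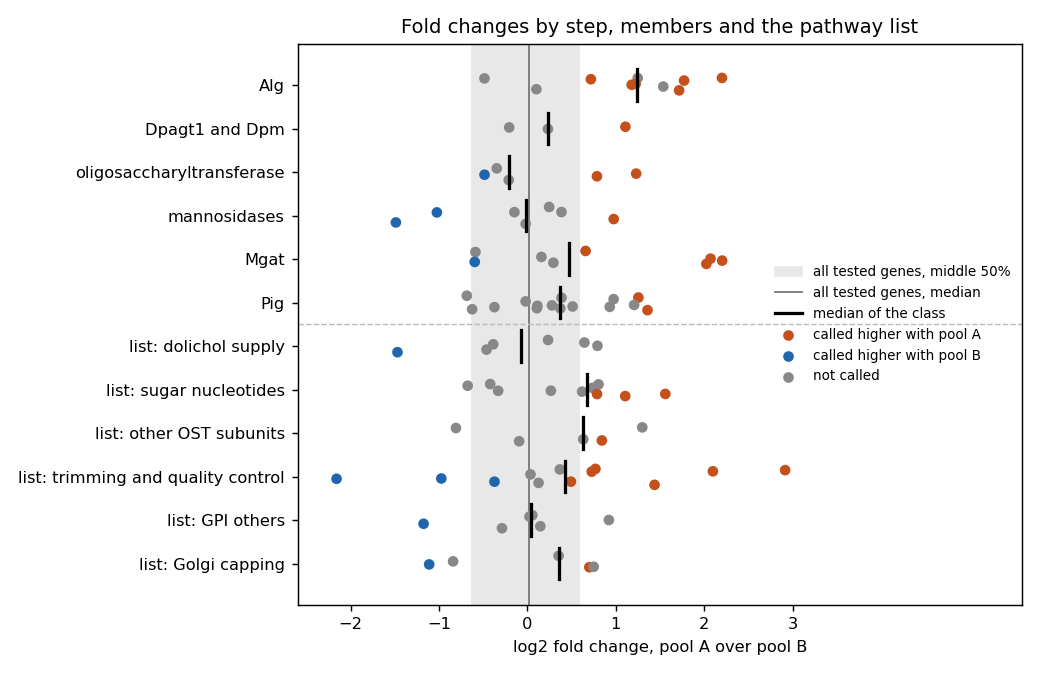
Log2 fold change of pool A over pool B for each tested gene by step, members above the dashed line and the pathway list below it, with black bars at class medians and the grey band over the middle 50% of all tested genes (-0.63 to 0.585). Class medians run from -0.21 for the oligosaccharyltransferase members to 1.24 for the Alg genes, and the median of all tested genes is 0.02.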

How the data were processed

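RNA pulled down from psoralen-treated GH4C1 cells with oligo pool A or B was sequenced in 3 libraries per pool. The submitters' processing notes name STAR and featureCounts; versions, genome build, annotation and strand setting are not given in the sources used here. The deposited table holds raw counts per gene, with no normalization by the authors. Since reads were counted, not molecules, intervals and floors describe counting error alone.

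The counts of all genes were filtered (filterByExpr), scaled by TMM and tested for pool A against pool B with edgeR 4.0.16 in R 4.3.3 (quasi-likelihood test, Benjamini-Hochberg adjustment over all tested genes, call at an adjusted p under 0.05). The procedure was tested on simulated data with far fewer changed genes than were called here. That test does not cover a contrast with this many calls. The members, the pathway and marker lists and the alternatives were chosen with earlier results of these data known. Genes named are every Alg row, up to 3 called members per class and direction with the largest fold changes, non-overlapping CPM and a mean count of 10 or more, and their complex or paralog partners; the same rule was used for the pathway list as a whole. Other genes named were chosen after their values were seen. Alternatives were DESeq2 1.42.0, limma 3.58.1 with voom, other scalings, filters and thresholds, leaving out each library, and the replicate number as a block. Libraries of a pool differed beyond sampling noise and were counted separately. Promoter windows are from RefSeq (GRCr8), matched by symbol.

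The replicate numbers were not taken as pairs: the deviations of same-numbered libraries correlated at 0.0409, -0.0195 and 0.0200 over genes.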

Additional observations from a re-analysis of the deposited data

How the results depend on the processing

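From 4 to 6 Alg genes were called higher with pool A under the other scalings, filters, thresholds and tests tried, and 5 or 6 with 1 library left out, though not always the same genes: without B1, Alg9 and Alg10 lost their calls and Alg2 gained one. Over all tested genes, calls higher with pool A ran from 1156 to 2515 under the settings that kept all 6 libraries, beside 2154 in the main fit. The Alg median stayed between 0.97, where 10 counts were required in every library, and 1.34, and between 1.12 and 1.43 with 1 library left out. Under the same filter the Alg median minus that of the other members was 0.72; with 1 library left out it ran from 0.82 to 1.21. The other members' median was 0.11 with scaling by total counts alone and 0.134 to 0.305 with 1 library left out. In a test against a 1.5-fold change, 10 members and 5 pathway list genes were called higher with pool A, 6 of the members being outside the Alg class. Over all 11582 tested genes, that test called 1156 higher with pool A. Members called higher with pool B, all outside the Alg class, fell from 4 to 2 with upper-quartile scaling, at an adjusted p under 0.01, in the 1.5-fold test, and without A2, B1 or B2 (range 2 to 4). Over all genes such calls fell from 2546 to 2251, 1956, 1521, 2194, 2362 and 2361, in the same order. Without 1 library, 13 to 15 members were called higher with pool A (7 to 10 outside the Alg class). So were 9 to 11 pathway list genes, with 4 to 6 called higher with pool B. Over all genes, those fits called 1856 to 2046 higher with pool A and 2194 to 2390 higher with pool B. Scaling by total counts alone moved the median of all genes to -0.13, and upper-quartile scaling to 0.12. Alg11 turned to -0.043 with total counts alone, -0.14 with limma-voom, -0.020 with the replicate block and -0.25 without A2 (range without 1 library -0.25 to 0.48); Dad1 turned to 0.10 without B2 (range -0.81 to 0.10), and Nus1 to 0.081 without B3 (range -0.58 to 0.081). The cause was not tested.

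With the replicate number as a block, 16 members (6 Alg genes) were called higher with pool A, and 4 (0 Alg genes) with pool B, and the Alg median was 1.265. Over all 11582 tested genes, 2085 and 2476 were called higher with pools A and B. Of 858 refits of 58 named genes, 774 kept direction and side of the threshold, 69 lost a call, 9 gained one and 6 turned sign. The 14 members under the low-count filter have no test.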

Other observations

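The folding cycle that reads the glucose left on a new glycan had calls in both directions among the other genes of the pathway list, named here after their values were seen. Calr, a chaperone that binds such glycans, had 115, 114 and 126 CPM in A1 to A3 and 89.6, 83.8 and 56.7 CPM in B1 to B3. Its ranges did not overlap, and it was called higher with pool A at a log2 fold change of 0.77 ± 0.17 (SE). Canx, the membrane-bound chaperone of the same cycle, had 469, 394 and 468 CPM against 669, 557 and 674 CPM and was called higher with pool B at -0.37 ± 0.13 (SE). That call was lost without A2, A3, B1 or B3, at values up to -0.30, and with upper-quartile scaling, at -0.27. Uggt1, which puts glucose back on unfolded glycoproteins, was called higher with pool A at 0.49 ± 0.16 (SE) although its ranges overlapped, and lost the call without A3, B2 or B3, at values down to 0.42, and with total counts alone, at 0.35. Lman1, a cargo receptor for glycoproteins leaving the endoplasmic reticulum, was called higher with pool A at 0.73 ± 0.21 (SE), with 48.0, 66.0 and 61.8 CPM against 42.9, 33.4 and 40.1 CPM.

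Paralogs of the Golgi galactosyltransferase step were called in opposite directions. B4galt2 had 23.6, 24.5 and 29.8 CPM with pool A, all below its 45.3, 58.0 and 82.1 CPM with pool B, and was called higher with pool B at -1.11 ± 0.24 (SE). B4galt3 had 40.7, 39.5 and 38.3 CPM against 19.4, 35.6 and 26.9 CPM and was called higher with pool A at 0.70 ± 0.25 (SE), a call lost without A1, A2, B1 or B3, at 0.50 without B1, and with total counts alone, at 0.55. Among sugar nucleotide genes, Gfpt1, the entry enzyme of the hexosamine pathway, was called higher with pool A at 1.11 ± 0.18 (SE), and Gmppb, which makes GDP-mannose, at 0.79 ± 0.22 (SE), a call lost without A3, at 0.54. The small oligosaccharyltransferase subunit Ost4 was called higher with pool A at 0.84 ± 0.33 (SE), with overlapping ranges, and lost the call without A1, B1 or B3, at values down to 0.595, in the DESeq2 test, at 0.86, with the replicate block, at 0.85, and with total counts alone, at 0.70.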
